A study of Homo sapiens with 8 samples.

Results

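The genes described here are the protein-coding genes of human chromosome 19 whose symbol is ZNF followed by a number, taken in their order along the chromosome. They encode proteins with tandem C2H2 zinc fingers, short loops that each hold a zinc ion and read a few bases of DNA. GENCODE release 44 mapped to GRCh37 lists 240 such genes, and 238 of them, called members below, were found by gene ID in the table of 56632 genes. ZNF8 and ZNF229 were not matched. Members less than 500 kb apart were put in 1 cluster, which gave 20 clusters numbered from the short arm to the long arm.

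Most zinc finger genes of chromosome 19 arose by local duplication, so that neighbours are relatives. Many of their proteins carry a KRAB domain, which binds TRIM28 (also known as KAP1), and TRIM28 in turn brings the histone methyltransferase SETDB1 and HP1 proteins to the bound DNA. KRAB zinc finger proteins are best known for silencing transposable elements, and the methylation of their promoters is a known way in which single genes of the family are lost in tumours and cultured lines.

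RNA was sequenced from 4 related lines grown as acini in Matrigel for 8 days, with 2 libraries labelled as biological replicates for each line. M1 is MCF10A, a non-tumorigenic line of mammary epithelium. M2 is MCF10AT1k.cl2, made from MCF10A with an activated HRAS and passed through a xenograft. M3 (MCF10Ca1h) and M4 (MCF10CA1a.cl1) were in turn established from carcinomas that M2-type cells formed in mice, and on grafting M3 mostly forms tumours that are well differentiated, and M4 ones that are less so. The cl in the names of M2 and M4 marks a clone, and each stage is 1 line. All lines had 2% horse serum, but M1 and M2 were grown with EGF at 10 ng/ml and M3 and M4 with none, so that in M3 or M4 against M1 the line and the medium cannot be told apart. M2 against M1 and M4 against M3 were matched in medium. The p-values below measure the spread between 2 cultures of 1 line, not between independently derived tumours.

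Library totals ran from 69669945 to 107350288 expected counts. The sample labels were used throughout, although a supplementary table of the study assigns the libraries labelled M1 replicate 2 and M2 replicate 1 to the other line, and counts with these libraries exchanged or left out are given beside those of the labels. HRAS was at 138.7 to 159.8 CPM (counts scaled to the library size and by TMM) in M1 and M2 and at 269.3 to 352.4 in M3 and M4, so M2 did not stand apart from M1 in this gene (log2 fold change 0.10). The 8 markers of basal mammary epithelium summed to between 8728 and 16418 CPM, with KRT14 the lowest of them in M4. Of the 6 matched markers of leukocytes, endothelium, fibroblasts and hepatocytes, PTPRC, CD3E, CDH5 and ALB had at most 11 counts in any library, and COL1A1 ranged from 6.07 to 25.5 CPM, highest in M1 replicate 1. Their part in the results below was not tested, and in such bulk RNA fewer cells with a transcript and less transcript per cell cannot be told apart.

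The members were a weakly transcribed family. Of the 238 members, 35 had no count in any library and 58 had fewer than 10 in every library. The filter on low counts left 170 members for testing, while 68 were not tested, the highest count of any of these being 112. In M1, 162 members had at least 10 counts in both libraries, as had 162 for M2, 153 for M3 and 158 for M4. The median level of the tested members was 5.93 CPM in M1, against 10.1 CPM for all tested genes. Per kb of exon the highest levels were those of ZNF146, at a mean of 33.2 CPM per kb, ZNF581 at 30.4, ZNF428 at 16.1, ZNF524 at 12.3 and ZNF787 at 8.52. ZNF146, which encodes a zinc finger protein without a KRAB domain, and ZNF787 were called in no comparison.

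The summed transcript level of the family was lower in the carcinoma lines. It was 1649 and 1763 CPM in the M1 libraries and 1643 and 1621 in those of M2, against 1211 and 1325 in M3 and 1208 and 1243 in M4. Every library of M3 and M4 was below every library of M1 and M2, M3 and M4 overlapped each other, and M2 was below M1 by less than the SD of M1 (1706 ± 80.2 and 1632 ± 15.6 CPM, SD, n = 2). With 2 libraries a line, an exact permutation test of this sum between 1 line and another cannot pass the threshold. Libraries of the same line are not independent lines, so lines were not pooled for a test either, and none was run.

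M1 replicate 1 held transcripts of some members that were all but absent from M1 replicate 2. In it 8 members had at least 30 counts that had at most 3 in M1 replicate 2, and there was no such member in the opposite direction or in M2, M3 or M4 (the limit of 30 was chosen after the counts were seen). The number of all genes at these limits is not given here, so the 8 cannot be read as particular to this family. ZNF71 had 112 counts, ZNF738 60, ZNF160 52 and ZNF256 45 in that library, and at most 1 count in each of the other 7. These 4 genes lie in 4 different clusters, 19, 6, 18 and 20, and were not tested because of the filter. ZNF558 had counts of 164 and 0 for M1, 1 and 3 for M2, 108 and 10 for M3 and 551 and 384 for M4, so that it was present in both M4 libraries, in 1 library of M1 and hardly in M2. It passed no test against M1 (M4 log2 2.30, adjusted p = 0.330), and its fitted difference of M4 from M1 ran from 1.30 to 11.75 depending on which libraries and filter were used. In 7 of the 8 members M2 replicate 1, the library whose line is in doubt, had at most 1 count as well.

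No member was called between M1 and M2. With edgeR's quasi-likelihood F test, a Benjamini-Hochberg adjusted p under 0.05 over 18431 genes and a change of more than 2-fold, 0 of 170 members were called, where 3.37% of all genes tested were (2.26% higher and 1.11% lower). The share over all genes was itself unstable, with 0 genes called with the doubtful libraries exchanged or without M2 replicate 2, 1 higher and 1 lower without M2 replicate 1, and 11 and 18 with both doubtful libraries left out. At an unadjusted p under 0.05 there were 24 members (14.1%), beside 23.3% of all genes, and DESeq2 called 1 member. The median log2 fold change of the members was -0.03, beside -0.035 for all genes.

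In M3, most of the members called were lower than in M1. Of 170 members, 29 were called lower (17.1%) and 2 higher (1.18%), where 5.51% of all genes tested were lower and 8.02% higher (13.5% either way). Among 207 tested ZNF genes of other chromosomes 6.76% were lower, and among 776 other protein-coding genes of chromosome 19 outside the clusters 6.06% were. Of 47 tested protein-coding genes with other symbols that lie between members, 0 were lower and 2 higher. These were set apart by symbol alone, so they can include zinc finger genes with other names. The median change was -0.49 for the members tested, -0.32 for these 47 genes, -0.20 for ZNF genes elsewhere and -0.18 for the coding genes outside the clusters, beside -0.016 for all genes. The difference between these shares was not tested. Exchanging the doubtful libraries left 8 lower and 1 higher, against 0.396% of all genes lower, and leaving both out left 17 and 1, against 3.12%. Without M3 replicate 2 the members called fell from 31 to 20.

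In M4 more members were called, and other genes of the chromosome were lower as well. Here 40 members were lower (23.5%) and 10 higher (5.88%), where 11.2% of all genes tested were lower and 9.48% higher (20.7% either way). The share of lower calls was 18.7% among other coding genes of chromosome 19 outside the clusters and 23.4% among those between members, and 9.66% among ZNF genes of other chromosomes. The median change was -0.47 for the members, -0.34 for other coding genes outside the clusters and -0.51 for those between members. Other coding genes inside the clusters were thus called lower about as often as the members, and this difference was not tested. Exchanging the doubtful libraries left 19 lower (11.2%, against 4.45% of all genes) and 3 higher (1.76%, against 4.01%). The members called were also fewer with both left out or without M4 replicate 2. With both left out their median was -0.40, beside 0.015 for all genes.

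**Figure D1:**
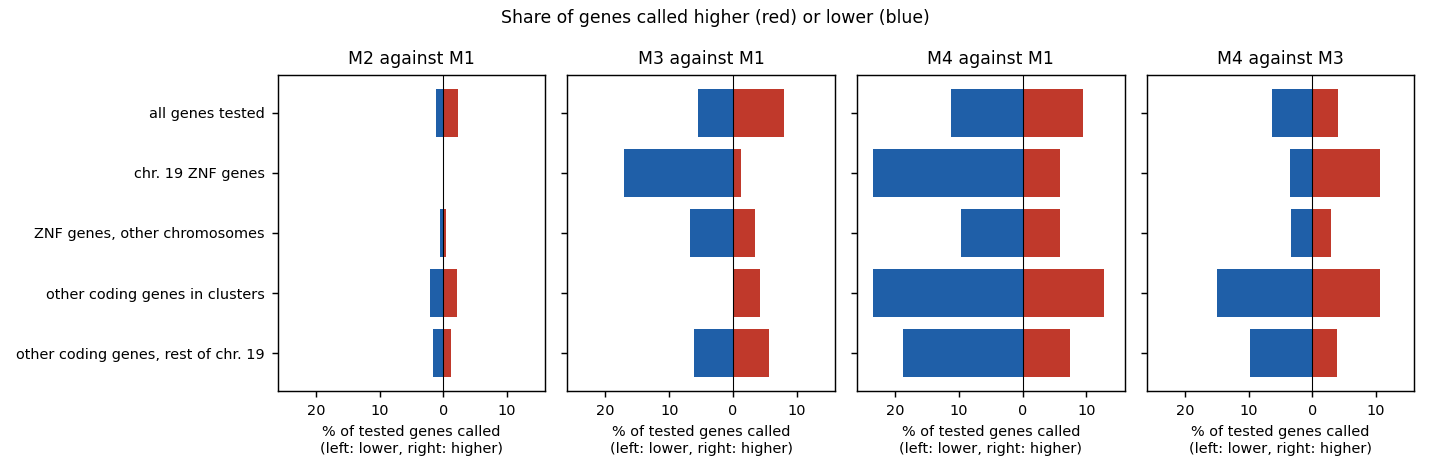
Bars give the percentage of tested genes called lower (blue, to the left) and higher (red, to the right) in each comparison, for all genes, the chromosome 19 ZNF genes and 3 comparison sets. In M3 against M1 the members reach 17.1% lower while the other sets stay at or below 6.76%, and in M4 against M1 the other coding genes in the clusters reach 23.4% beside 23.5% for the members.

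The comparisons of M3 and M4 with M1 share the M1 libraries as control, so no overlap of their calls is given as a result. ZNF266 and ZNF530 were called higher in each, and ZNF724 was called in opposite directions. The direct test of M4 against M3 called 18 members higher (10.6%) and 6 lower (3.53%), where 3.99% of all genes tested were higher and 6.3% lower (10.3% either way). This count depended on M4 replicate 1, without which it was 4 higher and 6 lower, while the calls over all genes also fell, to 1.17% higher and 1.91% lower. The members called were also fewer without M4 replicate 2 or M3 replicate 2. With the doubtful libraries exchanged they were 8 higher and 3 lower, where 1.55% of all genes were higher and 2.95% lower.

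Clusters 4 and 6 of the short arm held 13 of the 29 members called lower in M3. Cluster 4, from ZNF653 to ZNF791 (GRCh37 chr19:11594242-12750912), has 25 members, of which 15 were tested, and 6 of these were called lower in M3 and 0 higher, at a median of -1.30. Cluster 6, from ZNF101 to ZNF254 (chr19:19779605-24312770, the last of the short arm), has 37 members with 15 tested, and 7 were lower and 0 higher, at a median of -1.78. Of the 140 other members tested 16 were lower. In M4 the same clusters had 3 and 2 members lower and 1 higher each, at medians of -0.30 and 0.10, and 11 of the 18 members called higher in M4 than in M3 lay in them. The 4 tested coding genes with other symbols inside cluster 4 had 0 calls against M1 in M3 or in M4. With the doubtful libraries exchanged 4 members of cluster 4 and 2 of cluster 6 were lower in M3, and with both left out 5 and 7, while the count of cluster 6 was 4 without M1 replicate 1 and 4 without M3 replicate 2. The members called higher in M4 than in M3 were 1 in cluster 4 and 3 in cluster 6 without M4 replicate 1, 2 and 3 without M3 replicate 2, 3 in each with the doubtful libraries exchanged, and 3 and 4 with both left out or without M4 replicate 2. On the long arm 3 of the 5 tested members of cluster 9 were lower in M3, at a median of -1.07, which became 1 with the doubtful libraries exchanged or left out and 2 without M1 replicate 2 or M3 replicate 1.

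**Figure D2:**
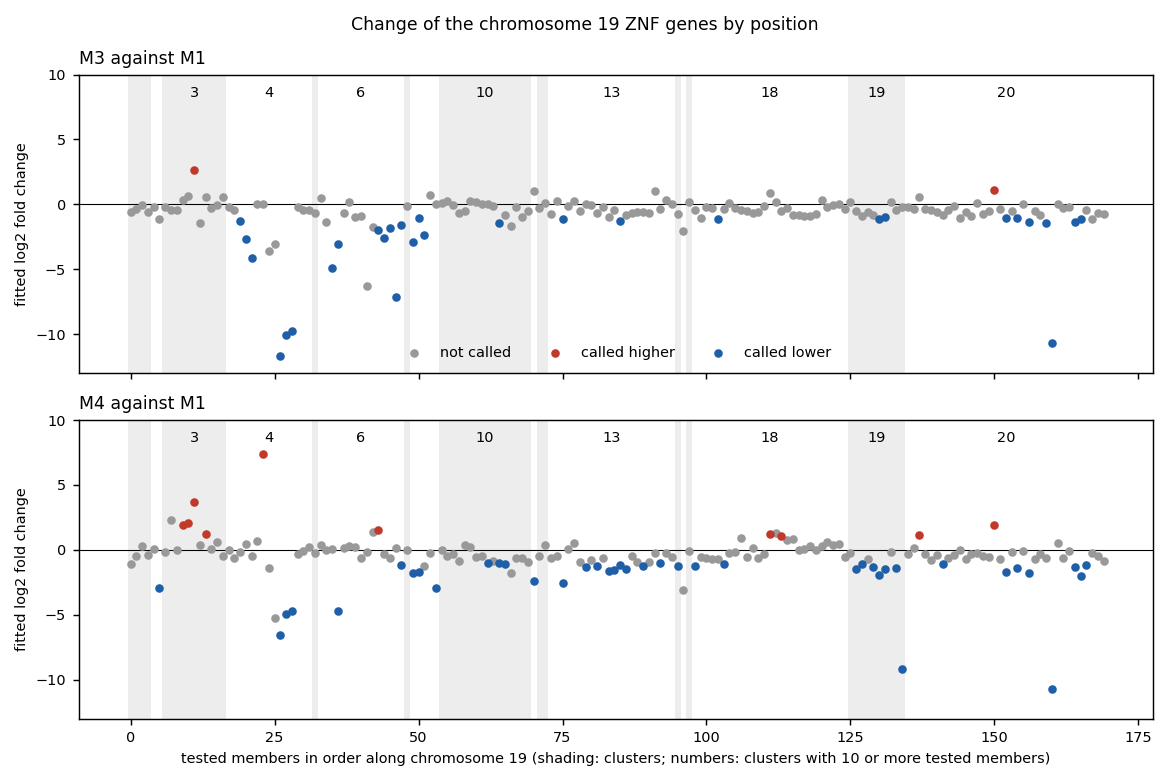
Each point is a tested member in its order along chromosome 19, with its fitted log2 fold change in M3 (top) and M4 (bottom) against M1, and shading marks alternate clusters. The lowest points in M3 lie in clusters 4 and 6, except ZNF606 in cluster 20, and members at 0 counts in 1 line have fitted values that depend on the model.

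ZNF44 was the member with the lowest fitted change in M3. It is on the minus strand at chr19:12335501-12405698 (ENSG00000197857), in cluster 4, and its promoter is shown further on. ZNF44 had counts of 400 and 366 for M1, 581 and 309 for M2, 0 and 0 for M3 and 6 and 3 for M4. All M1 and M2 libraries were thus far above both M3 and M4, and the M4 libraries above those of M3 by a few counts. Against a floor of 3 counts per library ZNF44 was at least 128.5-fold lower in M3 than in M1 (edgeR adjusted p = 0.000352), and its change in M4 was -6.60 on the log2 scale (SE 0.442, adjusted p = 0.000264). Both calls were kept under every alternative run. M2 did not pass the test against M1 (log2 0.12, adjusted p = 0.862). Only 0.1% of the 50-base words of its transcripts occur in another gene.

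The neighbours ZNF799 (ENSG00000196466, chr19:12500830-12512085) and ZNF443 (ENSG00000180855, chr19:12540520-12551835) had the same pattern. ZNF799 had counts of 122 and 138 for M1, 167 and 104 for M2, 0 and 0 for M3 and 3 and 6 for M4. ZNF443 had counts of 66 and 141 for M1, 231 and 111 for M2, 0 and 0 for M3 and 6 and 3 for M4. Neither gene overlapped between the M1 or M2 libraries and those of M3 or M4. In M3 ZNF799 was at least 43.7-fold and ZNF443 at least 34.8-fold lower than in M1 (edgeR adjusted p = 0.00143 and 0.00187), and in M4 their log2 fold changes were -4.96 (SE 0.609) and -4.72 (SE 0.641). These genes are near copies, with 24.0% and 36.6% of their 50-base words found in other genes, so that the division of reads between them is uncertain. The small difference of M4 from M3 in ZNF44, ZNF799 and ZNF443 rested on 9 counts in all for each gene, and its call was lost in 4 to 7 of the alternatives.

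Other members of cluster 4 were low in M3 alone (these were chosen after their values were seen). ZNF440 had counts of 183 and 192 for M1, 253 and 176 for M2, 15 and 6 for M3 and 137 and 166 for M4. ZNF441 had 126 and 193 for M1, 310 and 210 for M2, 37 and 13 for M3 and 270 and 227 for M4. M3 was far below all other libraries in both genes, and M4 was close to M1. ZNF440 fell by 4.14 on the log2 scale in M3 (SE 0.554, edgeR adjusted p = 0.00291) and was 3.68 higher in M4 than in M3 (adjusted p = 0.00691), both under every alternative. ZNF441 fell by 2.65 (adjusted p = 0.0135), a call lost with the doubtful libraries exchanged or left out and in the fit of the 2 lines alone. ZNF433 was the opposite case, with 0 counts in every library of M1, M2 and M3 and 33 and 15 in M4. It was at least 6.63-fold higher in M4 than in M1 (adjusted p = 0.0276), a call lost in 8 alternatives. At the ends of the cluster ZNF653 and ZNF627, and ZNF564, ZNF490 and ZNF791, were called against M1 in neither carcinoma line.

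Cluster 6 was likewise low in M3, and near M1 in M4. ZNF681 (ENSG00000196172, minus strand, chr19:23921997-23941693) had counts of 79 and 94 for M1, 119 and 102 for M2, 1 and 0 for M3 and 114 and 99 for M4. M4 overlapped M1 and M2 in CPM, while M3 was almost empty. The ratio of M1 to M3 was 174.6 (95% exact counting interval 30.9 to 6937, edgeR adjusted p = 0.00129) and that of M4 to M3 was 184.9 (32.8 to 7337, adjusted p = 0.0023). ZNF681 in M4 did not pass the test against M1 (log2 0.11, adjusted p = 0.876). The calls in M3 and between M4 and M3 were kept under every alternative, and the intervals cover counting error only.

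ZNF91, a KRAB protein known to bind and repress SVA and L1 retrotransposons, showed this at a higher level. It had counts of 992 and 696 for M1, 1002 and 599 for M2, 123 and 161 for M3 and 785 and 731 for M4. M3 was below every other library, and M4 overlapped M1 and M2. ZNF91 fell by 2.59 on the log2 scale in M3 (SE 0.289, edgeR adjusted p = 0.00149) and was 2.26 higher in M4 than in M3 (SE 0.286, adjusted p = 0.00412), under every alternative for both, whereas its change in M4 was -0.33 (adjusted p = 0.388). ZNF675, also known as TIZ, an inhibitor of TRAF6 signalling, had counts of 696 and 383 for M1, 510 and 398 for M2, 186 and 117 for M3 and 394 and 388 for M4, with M3 again the lowest. It fell by 1.83 in M3 (adjusted p = 0.0194), a call lost in 4 alternatives, and by 0.63 in M4 without passing the test.

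ZNF724 went in opposite directions. Its counts were 114 and 68 for M1, 177 and 124 for M2, 24 and 22 for M3 and 319 and 291 for M4, so that M3 was below and M4 above all libraries of M1 and M2. The log2 fold change was -1.99 in M3 (SE 0.404, edgeR adjusted p = 0.0132) and 1.56 in M4 (SE 0.381, adjusted p = 0.0181), calls that were lost in 3 and 5 alternatives. The difference of M4 from M3 was 3.55 (SE 0.420, adjusted p = 0.0034) and was called in every alternative. For ZNF724, 48.2% of the 50-base words are shared, mostly with an overlapping coding gene. ZNF85 and ZNF254 of cluster 6 stayed low in M4. ZNF85 had counts of 293 and 167 for M1, 284 and 156 for M2, 48 and 6 for M3 and 11 and 9 for M4. ZNF254 had counts of 591 and 553 for M1, 627 and 402 for M2, 200 and 173 for M3 and 372 and 225 for M4. Both were called lower in both lines, with each of these calls lost in 1 to 4 alternatives.

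**Figure D3:**
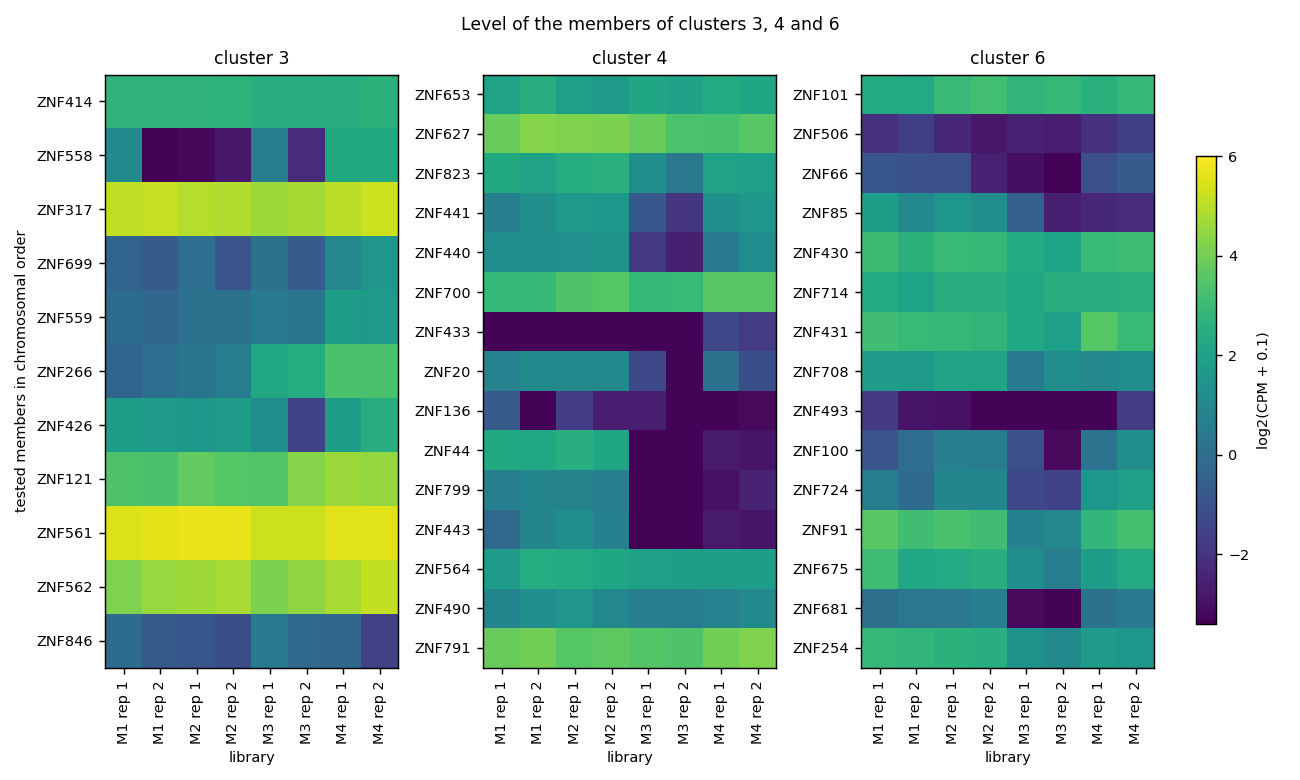
Colour gives log2(CPM + 0.1) of each tested member of clusters 3, 4 and 6 in each of the 8 libraries, with members in chromosomal order from top to bottom. ZNF44, ZNF799 and ZNF443 are dark in M3 and M4, whereas ZNF440, ZNF441, ZNF681 and ZNF91 are darkest in M3, and ZNF266 of cluster 3 brightens from M1 to M4.

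The promoters of the 5 members that were all but absent in M3 are shown because 4 of them share a stretch that the fifth lacks. The sequences are the 250 bases before the most upstream RefSeq start, 5′ to 3′ in the direction of transcription, in GRCh38.p14, a later build than the GRCh37 of the gene positions above. They lie at chr19:12294884-12295133 for ZNF44, chr19:12401272-12401521 for ZNF799, chr19:12441022-12441271 for ZNF443, chr19:23758892-23759141 for ZNF681 and chr19:58002821-58003070 for ZNF606, all on the minus strand. Capitals mark TCTTCTGTCA, the longest stretch common to the first 4, which were chosen after their values were seen.
ZNF44: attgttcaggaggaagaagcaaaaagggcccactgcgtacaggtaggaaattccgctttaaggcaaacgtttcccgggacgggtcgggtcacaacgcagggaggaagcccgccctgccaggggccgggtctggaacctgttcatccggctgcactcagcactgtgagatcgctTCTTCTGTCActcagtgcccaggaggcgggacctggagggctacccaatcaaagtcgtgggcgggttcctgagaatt
ZNF799: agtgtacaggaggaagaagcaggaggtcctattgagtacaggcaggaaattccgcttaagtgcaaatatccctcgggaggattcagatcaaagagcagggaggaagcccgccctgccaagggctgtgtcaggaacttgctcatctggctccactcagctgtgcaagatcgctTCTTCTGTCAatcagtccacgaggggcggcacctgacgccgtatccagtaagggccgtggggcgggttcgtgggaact
ZNF443: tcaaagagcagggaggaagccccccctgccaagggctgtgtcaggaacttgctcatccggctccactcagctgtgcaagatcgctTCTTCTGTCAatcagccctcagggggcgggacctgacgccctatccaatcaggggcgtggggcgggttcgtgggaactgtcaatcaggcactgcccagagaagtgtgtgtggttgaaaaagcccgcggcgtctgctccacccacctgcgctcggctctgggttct
ZNF681: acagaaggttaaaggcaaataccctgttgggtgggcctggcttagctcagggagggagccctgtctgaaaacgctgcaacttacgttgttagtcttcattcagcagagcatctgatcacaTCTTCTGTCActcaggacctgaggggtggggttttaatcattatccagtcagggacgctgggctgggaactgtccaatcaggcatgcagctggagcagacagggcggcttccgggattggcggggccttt
ZNF606: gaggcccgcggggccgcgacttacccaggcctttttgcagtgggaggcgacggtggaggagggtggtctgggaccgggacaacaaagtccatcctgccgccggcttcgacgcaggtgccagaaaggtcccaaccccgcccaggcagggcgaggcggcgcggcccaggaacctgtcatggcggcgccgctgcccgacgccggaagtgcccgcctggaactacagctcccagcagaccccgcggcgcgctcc

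The stretch TCTTCTGTCA was present on either strand in 60 of 35116 promoters of the RefSeq table (0.171%, windows of 250 bases before to 50 after a start), and in 23 of the 208 members with a promoter there (11.1%). It was found in 1 of 195 promoters of ZNF genes on other chromosomes (0.513%). All 23 members lie in cluster 4 (6 of 24) or cluster 6 (17 of 29), and 0 of the 155 members in other clusters had it. ZNF606 of cluster 20, absent in M3 and M4 alike, lacks it and has 27 CG dinucleotides in the 250 bases shown. ZNF44 has 14 there, ZNF443 12, ZNF799 11 and ZNF681 6.

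Tested members of clusters 4 and 6 with and without this stretch are given side by side, the first including the 4 genes that were chosen for their absence in M3. With it, 10 of 14 were called lower in M3, at a median log2 fold change of -2.82, and without it 3 of 15, at -0.48. Leaving out the 4 genes from which the stretch was read, the count was 6 of 10 at a median of -1.91, which was 1 of 1 with it and 2 of 11 without it in cluster 4, and 5 of 9 and 1 of 4 in cluster 6. In M4, 4 of 14 with it and 1 of 15 without it were lower than in M1, at medians of -0.17 and -0.10, and 8 of 14 and 3 of 15 were higher than in M3. With the doubtful libraries exchanged the counts in M3 were 5 and 1, with both left out 9 of 15 and 2 of 15, and without M3 replicate 2 they were 6 of 15 and 3 of 15. The stretch was found in these data and its members are relatives by duplication, so the counts are a description and no test was made. Among all promoters the median number of CG dinucleotides in the 300-base window was 14, against 20 in the 208 members, 17 in the 26 called lower in M3, 22 in the 35 called lower in M4 and 22 in the 98 tested members called in neither.

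On the long arm, ZNF606 and ZNF583, in different clusters, were counted in both M1 libraries and at 0 in a carcinoma line. ZNF606 (ENSG00000166704, chr19:58488444-58514717) had counts of 155 and 245 for M1, 201 and 138 for M2 and 0 in all 4 libraries of M3 and M4. It was at least 67.2-fold lower in M3 and at least 74.9-fold lower in M4 than in M1 (edgeR adjusted p = 0.00147 and 0.000782), and both calls were kept under every alternative. ZNF583 in cluster 19 was lost in M4 alone, with counts of 70 and 70 for M1, 105 and 51 for M2, 50 and 74 for M3 and 0 and 0 for M4. It was at least 26.2-fold lower in M4 than in M1 and at least 22.8-fold lower than in M3 (adjusted p = 0.000728 and 0.00269), under every alternative. With ZNF44, ZNF799, ZNF443 and ZNF681 in M3, ZNF606 was 1 of 5 members that had at most 3 counts in both M3 libraries and at least 100 in both libraries of another line. By the same limits there were 0 for M1, 1 for M2 (ZNF558) and 1 for M4 (ZNF606). The number over all genes is not given here.

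ZNF792 in cluster 9 had counts of 149 and 168 for M1, 196 and 128 for M2, 96 and 239 for M3 and 20 and 25 for M4. M4 was below all other libraries, with a log2 fold change of -2.96 from M1 (SE 0.521, edgeR adjusted p = 0.00512) and -3.0 from M3 (adjusted p = 0.0109), the second of which was lost without M4 replicate 1. At the other end of this cluster, ZNF302 had counts of 632 and 478 for M1, 828 and 593 for M2, 58 and 93 for M3 and 255 and 135 for M4. ZNF302 was low in both carcinoma lines and lowest in M3, with falls of 2.90 in M3 and 1.76 in M4 on the log2 scale (adjusted p = 0.00149 and 0.00508), under every alternative. ZNF546, which forms a cluster of its own, had counts of 46 and 34 for M1, 69 and 32 for M2, 65 and 104 for M3 and 13 and 5 for M4. It was 3.45 lower on the log2 scale in M4 than in M3 (log2 -3.45, adjusted p = 0.00857), which missed the threshold without M4 replicate 2 (adjusted p = 0.0501).

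**Figure D4:**
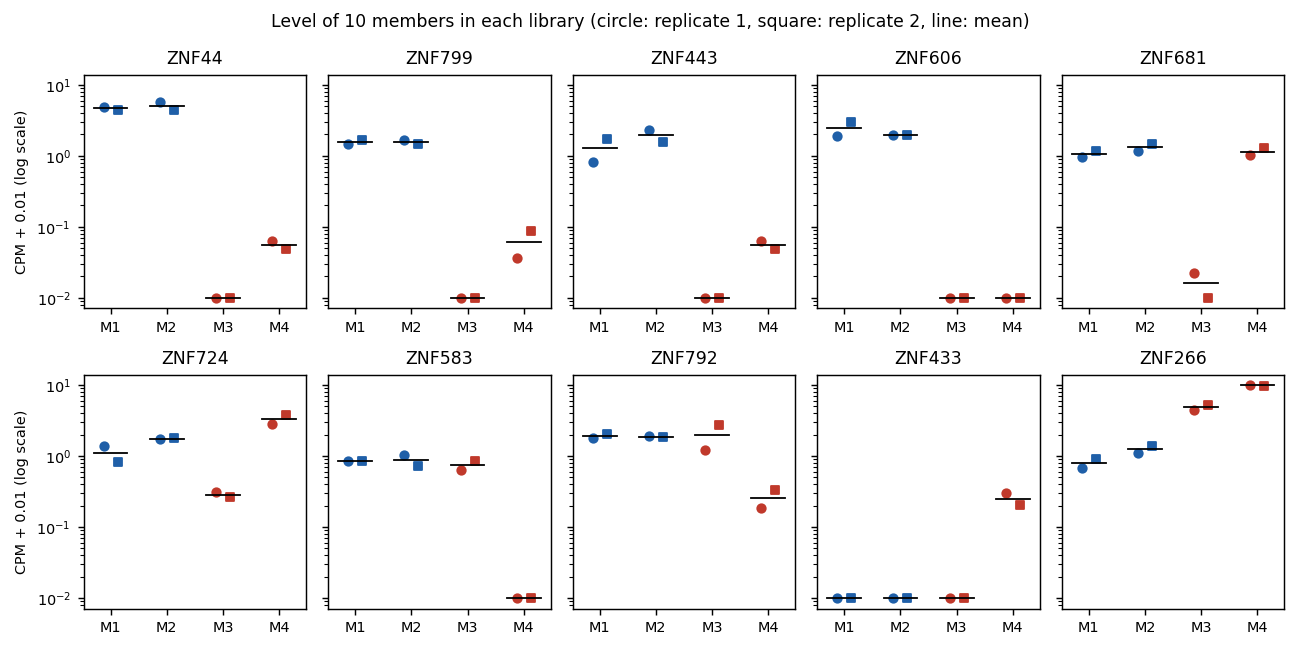
Points are the CPM (with 0.01 added, log axis) of 10 members in each library, circles for replicate 1 and squares for replicate 2, blue for M1 and M2 and red for M3 and M4, with lines at the mean of the 2 libraries. ZNF606 is at 0 in M3 and M4, ZNF681 in M3 alone to within 1 count, ZNF583 in M4 alone, and ZNF266 is higher in M3 and again in M4.

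In clusters 13 and 19 many members were moderately lower in M4, and fewer were called in M3. All 22 members of cluster 13 (chr19:44029649-45004576) were tested, and 9 were called lower in M4 and 0 higher, at a median of -0.93, against 2 lower in M3 at -0.48. In cluster 19, 7 of 10 tested members were lower in M4, at a median of -1.37, and 2 in M3. The count of cluster 13 in M4 fell to 2 when the doubtful libraries were exchanged or left out, 4 without M4 replicate 2 and 5 without M1 replicate 2, while its median stayed between -0.85 and -1.10. The count of cluster 19 in M4 fell to 3 with these libraries exchanged and to 5 of 11 with both left out. Of 10 other coding genes in cluster 13, 1 was lower and 2 higher in M4, at a median of 0.11, and of 8 in cluster 19, 3 were lower and the median was -1.19, near that of the members there. Within cluster 13 ZNF227 had counts of 2039 and 1861 for M1, 2086 and 1490 for M2, 1181 and 1400 for M3 and 1286 and 696 for M4, and fell by 1.22 on the log2 scale in M4 (SE 0.174, edgeR adjusted p = 0.0022) under every alternative. ZNF224, a KRAB repressor of the aldolase A gene, had counts of 1188 and 1531 for M1, 1279 and 640 for M2, 477 and 637 for M3 and 952 and 481 for M4. It fell by 1.31 in M3 and 1.18 in M4 (adjusted p = 0.0138 for both), and each call was lost in 4 alternatives, among them the exchange of the doubtful libraries.

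The highly transcribed members ZNF428 of cluster 13 and ZNF581 of cluster 19 were also lower, whereas ZNF787 of cluster 19 was not called (log2 -0.20 in M4, edgeR adjusted p = 0.309). ZNF524 of cluster 19 fell by 1.07 on the log2 scale in M4 (adjusted p = 0.0241), a call lost in 6 alternatives, and it overlaps FIZ1 on the opposite strand. ZNF428 had counts of 2890 and 4433 for M1, 2894 and 1834 for M2, 1769 and 1626 for M3 and 945 and 530 for M4. M4 was the lowest line, M3 was below M1 and M2, and the M1 libraries themselves differed by more than those of M3. The log2 fold change of ZNF428 was -1.12 in M3 (edgeR adjusted p = 0.0141), a call lost in 4 alternatives, and -2.56 in M4 (SE 0.243, adjusted p = 0.000466), kept in every one. ZNF581 had counts of 6756 and 7037 for M1, 4413 and 2944 for M2, 4326 and 2531 for M3 and 3408 and 2472 for M4. M1 was above all other libraries in CPM, and the M3 libraries overlapped M2 and M4. It fell by 1.00 in M3 and 1.44 in M4 (adjusted p = 0.0316 and 0.00591), calls lost in 7 and 1 alternatives. ZNF581 overlaps ZNF580 on the same strand, and ZNF580, which fell by 1.95 in M4 (adjusted p = 0.00149), may share reads with it.

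ZNF350 and ZNF420, known partners of tumour suppressors, had smaller changes (both were chosen after their values were seen). ZNF350, also known as ZBRK1, a KRAB corepressor that binds BRCA1, had counts of 625 and 678 for M1, 705 and 520 for M2, 306 and 297 for M3 and 571 and 371 for M4. It fell by 1.12 in M3 (SE 0.224, edgeR adjusted p = 0.0126), a call lost in 3 alternatives, and by 0.69 in M4, under the 2-fold limit. ZNF420, also known as APAK, which inhibits p53 activity, had counts of 480 and 530 for M1, 695 and 451 for M2, 431 and 628 for M3 and 345 and 240 for M4. Its log2 fold change in M4 was -1.0 (adjusted p = 0.0186), at the limit and lost in 9 alternatives, and 0.05 in M3.

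Cluster 3 held 4 of the 10 members called higher in M4. From ZNF414 to ZNF846 (chr19:8574562-9903856), 11 of 13 members were tested, and 4 were called higher in M4 and 0 lower, at a median of 0.59, and 1 higher in M3. The 4 became 2 with the doubtful libraries exchanged and without M1 replicate 2, M4 replicate 1 or M4 replicate 2, and 1 with both doubtful libraries left out. ZNF266 (ENSG00000174652, minus strand, chr19:9523105-9546249) had counts of 55 and 74 for M1, 111 and 98 for M2, 354 and 462 for M3 and 1120 and 769 for M4. The 4 lines did not overlap, in the order M1, M2, M3 and M4. Its log2 fold change was 2.64 in M3 (SE 0.302, edgeR adjusted p = 0.00161) and 3.65 in M4 (SE 0.314, adjusted p = 0.000341), both under every alternative. M2 was not called (log2 0.66, adjusted p = 0.224), and the difference of M4 from M3 (1.01, adjusted p = 0.0463) was lost in 8 alternatives. The others called higher in M4 were ZNF699, ZNF559 and ZNF121.

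ZNF559, near ZNF266, had counts of 70 and 59 for M1, 100 and 70 for M2, 103 and 99 for M3 and 396 and 242 for M4. M4 was above every other library, by 2.07 on the log2 scale from M1 (SE 0.330, edgeR adjusted p = 0.00347), and this was lost when both doubtful libraries were left out. Of its 50-base words 13.5% are shared with the readthrough transcript ZNF559-ZNF177. ZNF699 rose by 1.94 in M4 (adjusted p = 0.0287), a call lost in 6 alternatives. Outside cluster 3, ZNF530 of cluster 20 had counts of 107 and 133 for M1, 257 and 211 for M2, 276 and 255 for M3 and 627 and 421 for M4. M2 and M3 overlapped and both lay above M1, and ZNF530 was 1.90 higher in M4 (adjusted p = 0.00307) except with the doubtful libraries exchanged.

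In cluster 18, the second largest by members (39, of which 27 were tested), M4 was above M3 and near M1. The median log2 fold change was -0.40 in M3, -0.0045 in M4 and 0.43 between M4 and M3, with 4 members called higher in M4 than in M3, namely ZNF841, ZNF83, ZNF611 and ZNF600. This count was 0 without M4 replicate 1 and 2 with the doubtful libraries exchanged. ZNF83 had counts of 1171 and 1470 for M1, 1411 and 1038 for M2, 1105 and 762 for M3 and 4139 and 2527 for M4. M4 was above all other libraries, by 1.10 on the log2 scale from M1 (SE 0.242, edgeR adjusted p = 0.0122) and by 1.60 from M3 (SE 0.245, adjusted p = 0.00754). Both calls were lost without M4 replicate 1, and the first also without M1 replicate 1 or with both doubtful libraries left out. In cluster 20, with 40 members the largest, 7 of 35 tested were lower in M3 and 8 in M4, with 1 and 2 higher, and 0 were called between M4 and M3. The 7 became 1 with the doubtful libraries exchanged, 2 with both left out, 3 without M3 replicate 2 and 4 without M3 replicate 1, and the 8 became 4 with the exchange.

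**Figure D5:**
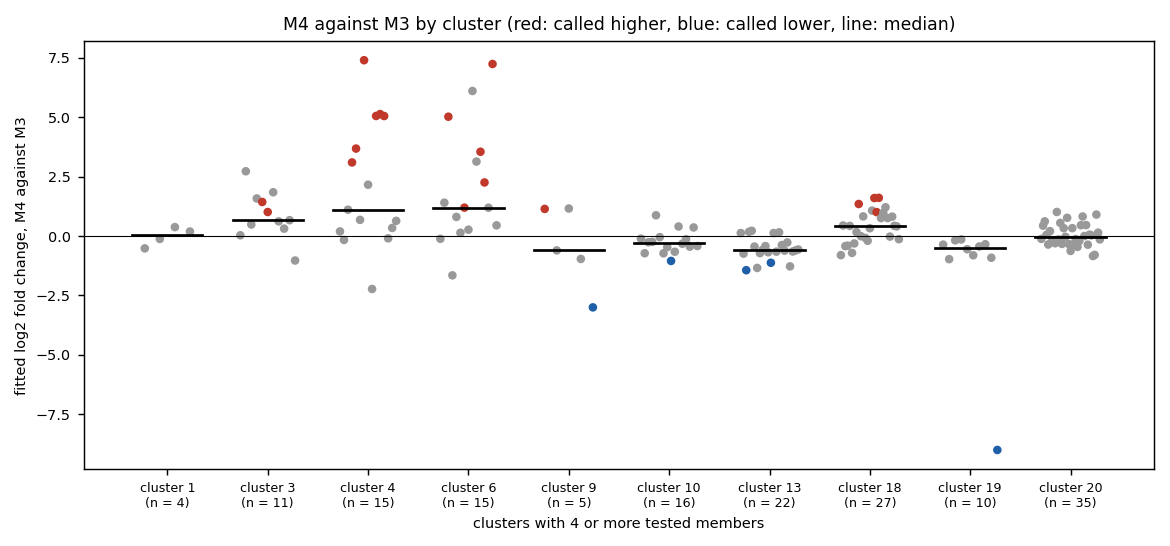
Points are the fitted log2 fold changes of M4 against M3 for tested members, grouped by the clusters with 4 or more of them, red where called higher and blue where called lower, with a line at each median. Medians are at 1.11 and 1.20 in clusters 4 and 6, 0.43 in cluster 18 and -0.59 in cluster 13.

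No gene on a list of cofactors through which KRAB proteins act was called. Of 14 matched genes of a list with TRIM28, SETDB1, ATF7IP, the HP1 genes CBX1, CBX3 and CBX5, the HUSH subunits TASOR, MPHOSPH8 and PPHLN1, and DNMT1, among others, 0 were called in any comparison by edgeR or by DESeq2. Over all genes tested, edgeR called 3.37% in M2, 13.5% in M3 and 20.7% in M4 against M1, and 10.3% in M4 against M3. At an unadjusted p under 0.05 in edgeR there were 3 in M2, 6 in M3 and 2 in M4 against M1. There were 5 in M4 against M3. The share of all genes at that limit was 23.3%, 36.6%, 43.2% and 33.8%, in the same order. The list's median log2 fold change was 0.17 in M3 and 0.04 in M4. TRIM28 was at 339 to 367 CPM in M4 and at 463 and 464 in M1 (log2 -0.39, edgeR adjusted p = 0.071). Below the 2-fold limit, CBX1 was 0.86 higher in M3 (edgeR adjusted p = 0.016) and CBX3 0.79 higher (adjusted p = 0.011). DNMT1, the maintenance DNA methyltransferase, was 0.74 higher in M3 and 0.83 in M4 (adjusted p = 0.016 and 0.007). Its log2 fold change in M2 was 0.69 (adjusted p = 0.051). Others of the list were lower in M3, though none at an adjusted p under 0.05. Among these were TRIM33 (log2 -0.49), ATF7IP (-0.47), TRIM24 (-0.43) and MPHOSPH8 (-0.31).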

How the data were processed

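Poly A+ RNA of the 8 libraries was read as paired ends. The authors deposited the expected count (an estimated count) of each gene, made with Trimmomatic, STAR and RSEM on hg19 (GRCh37) and GENCODE v19; per the submitters' processing notes Picard was used too. Versions and the strand setting are not given in the sources used here, so members that overlap another gene are uncertain. The counts are not normalized and were rounded to whole numbers here. Groups and replicates came from the sample labels, and counts were read from the deposited table through its column names.

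Members were matched by gene ID to GENCODE 44 mapped to GRCh37. All 18431 genes left by filterByExpr were fitted in edgeR 4.0.16 (R 4.3.3) with TMM scaling, 1 coefficient per line over 8 libraries and the robust quasi-likelihood F test. A call needed a Benjamini-Hochberg adjusted p under 0.05 and an absolute log2 fold change above 1, and the SE is the one implied by F. Folds against a line at 0 are bounds from a floor of 3 counts per library, and 95% ratio intervals are exact (Clopper-Pearson, scipy 1.17.1) and cover counting error only. Shared sequence was measured as 50-base words of GENCODE 44 transcripts. Promoters are from RefSeq, GRCh38.p14, for 208 of 238 members. The fit was tested on simulated data. DESeq2 1.42.0, its size factors, other filters, a replicate block, the 2 lines alone, exchanged libraries and leaving out libraries were alternatives, and leaving out both doubtful libraries was added after the data were seen.

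The members and lists were chosen with earlier results of these data known. Named members are ZNF44, those with the largest changes in each comparison (4 higher and 4 lower, libraries not overlapping), those with at most 3 counts in both libraries of a line and at least 100 in both of another, the 5 with the highest level per kb, those called in opposite directions, and the cofactor list. Another 22, among them ZNF91, ZNF440, ZNF302 and ZNF83, were named after their values were seen.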

Additional observations from a re-analysis of the deposited data

Results flagged for a closer look

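The effects of M3 and M4 against M1 differed, by the test of M4 against M3 itself, in 24 named members (edgeR adjusted p under 0.05 and a change above 2-fold). These are all the members called in that comparison, since some were named only after their values were seen. The log2 difference of M4 from M3 was positive in cluster 4, at 5.06 in ZNF44, 5.14 in ZNF799, 5.05 in ZNF443, 3.68 in ZNF440, 3.10 in ZNF441 and 7.41 in ZNF433. It was positive in cluster 6, at 7.25 in ZNF681, 5.03 in ZNF66, 3.55 in ZNF724, 2.26 in ZNF91 and 1.20 in ZNF431. In cluster 18 it was 1.60 in ZNF83, 1.61 in ZNF600, 1.35 in ZNF841 and 1.01 in ZNF611, and in clusters 3 and 9 it was 1.01 in ZNF266, 1.43 in ZNF559 and 1.14 in ZNF302. It was negative in ZNF583 (-9.01), ZNF546 (-3.45), ZNF792 (-3.0), ZNF428 (-1.44), ZNF284 (-1.13) and ZNF420 (-1.05). The values of ZNF44, ZNF799, ZNF443, ZNF433 and ZNF583 come from a line at 0 counts and depend on the model. For ZNF66, 14.8% of the 50-base words are shared with other genes. The calls of ZNF91, ZNF440, ZNF681, ZNF724 and ZNF583 were kept under every alternative run, and each of the others was lost in at least 1.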

How the results depend on the processing

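Between M1 and M2 the reported fit called 0 members, DESeq2 called 1, the fit with no filter 9, and leaving out single libraries 0 to 2 (2 without M1 replicate 2). In M3 against M1, 31 members were called as reported, 9 with the doubtful libraries exchanged, 18 with both left out, 19 in the fit of these lines alone and 20 to 31 leaving out single libraries (20 without M3 replicate 2). In M4 against M1, 50 members became 22 with the libraries exchanged, 26 with both left out and 29 to 43 leaving out single libraries (29 without M4 replicate 2). In M4 against M3, 24 members became 11 with the libraries exchanged, 14 with both left out, 14 in the fit of these lines alone and 10 to 19 leaving out single libraries (10 without M4 replicate 1, 12 without M4 replicate 2 and 15 without M3 replicate 2). All calls made with exchanged libraries were among the calls reported. Calls over all genes fell in that run too, to 0.792% higher and 0.396% lower in M3 against M1. They fell to 4.01% and 4.45% in M4 against M1, and to 1.55% and 2.95% in M4 against M3. DESeq2, its size factors, the other filters, no minimum fold and the wider symbol rule moved no other count by more than 1.5 times. The median M4 against M3 was -0.0037, 0.0096 with DESeq2's size factors and 0.11 with total counts, so no direction is given for it. Of 74 calls on named members 26 were past the threshold under every alternative run, and none turned its direction past the threshold. The cause of these changes was not tested. Replicate differences over 13495 genes correlated at 0.248 between M3 and M4, and at -0.0875 to 0.00854 between the other pairs of lines. Replicates were not paired in the reported fit, which leaves out any variation that the replicates of M3 and M4 share. A replicate block gave 0, 30, 46 and 17 calls in the 4 comparisons, beside 0, 31, 50 and 24 as reported. Members near 10 counts are beyond what this depth resolves. The 68 not tested did not pass the filter on low counts, and their highest count in any library was 112.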
